A study of Homo sapiens with 2 samples.

Results

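The regions described here are 245 E2F1 peaks that lie in 6 intervals of human chromosome 19 rich in KRAB zinc finger genes, out of 1531 peaks on chromosome 19 and 28734 in the whole list. A peak was counted as a member when its midpoint fell in chr19:11700000-12700000, chr19:19700000-24500000, chr19:36700000-38400000, chr19:44300000-45000000, chr19:52300000-54000000 or chr19:56400000-59100000 (hg19). They are called cluster 1 to cluster 6 in this order. Membership rests on position alone, and the intervals were chosen with earlier results of these data known. Together the intervals span 12.6 Mb, and the rest of chromosome 19 holds 1286 peaks over 46.2 Mb between the first and the last peak of the chromosome. The peaks come from 1 chromatin immunoprecipitation library (ChIP-seq, which sequences DNA bound by a protein). The protein was E2F1, precipitated from LNCaP-abl cells with a pair of antibodies, and an input library of the same cells, made without antibody, was not analysed here. LNCaP-abl is a prostate cancer line that grows without androgen, and both libraries came from passages 61 to 64, kept in medium with 10% charcoal-stripped serum and without androgen for 3 days.

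E2F1 is a transcription factor that binds mostly at promoters rich in CpG and drives genes of S phase entry and DNA replication. KRAB zinc finger proteins form the largest family of human transcription factors, and many of them recruit the co-repressor TRIM28 to silence transposable elements. Their genes arose by repeated tandem duplication, so on chromosome 19 they stand side by side, each with its own promoter, in long arrays that also carry heterochromatin marks over the zinc finger exons.

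The intervals could not be checked against a gene annotation of hg19, so no peak is assigned to a gene. The RefSeq gene table of GRCh38.p14 was used for gene order alone. It holds 262 protein-coding zinc finger genes on chromosome 19, recognised by symbol, which are 18.1% of the 1451 protein-coding genes there and 46.8% of the 560 such zinc finger genes of all chromosomes. In that order, 162 of the 262 stand in 10 unbroken runs of at least 8 zinc finger genes. The longest run has 27 genes, from ZNF737 to ZNF681. Runs of 24 genes go from ZNF627 to ZNF791 and from ZNF565 to ZNF793, one of 23 goes from ZNF772 to ZNF256, and one of 20 goes from ZNF283 to ZNF180. Which run lies in which hg19 interval was not worked out.

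The promoters of these genes are shown because promoters are where E2F1 is known to bind most. RefSeq promoters (GRCh38.p14, from 250 bases before to 50 after the start) were at hand for 226 of the 262 genes, as 284 windows, since some genes have several starts. The E2F motif was searched as TTTGGCGC and TTTCGCGC on both strands, that is, also as GCGCCAAA and GCGCGAAA. Forms of opposite strands can overlap at their shared GCGC, and a window was counted once. The motif was found in 15 of the 284 windows (5.28%, exact 95% interval 2.99 to 8.56%), against 15 of 1264 windows of the other protein-coding genes of chromosome 19 (1.19%, 0.666 to 1.95%) and 403 of all 35116 windows (1.15%). Other forms of the E2F motif were not searched, so these shares cover the listed forms alone. Tandem copies share sequence, so the windows are not independent. Of the 15 matches, 13 lie before the start, and the 9 of these in genes from runs of at least 8 are printed here, 5′ to 3′ on the strand of the gene with the motif in capitals and up to 20 bases on each side, ending before the start. A match is letters in a window and not an observed site. Their coordinates are of another build than the peaks and cannot be set against them.
ZNF90 (GRCh38.p14 chr19:20077969-20077999, plus strand): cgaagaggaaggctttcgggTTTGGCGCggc
ZNF486 (GRCh38.p14 chr19:20167179-20167213, plus strand): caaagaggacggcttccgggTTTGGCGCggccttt
ZNF723 (GRCh38.p14 chr19:22832260-22832290, plus strand): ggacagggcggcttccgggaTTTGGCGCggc
ZNF730 (GRCh38.p14 chr19:23116996-23117024, plus strand): agacagggcggcttccgggaTTTGGCGCg
ZNF565 (GRCh38.p14 chr19:36215162-36215209, minus strand): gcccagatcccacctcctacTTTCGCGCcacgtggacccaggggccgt
ZNF260 (GRCh38.p14 chr19:36528400-36528447, minus strand): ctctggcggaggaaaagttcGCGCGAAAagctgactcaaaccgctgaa
ZNF875 (GRCh38.p14 chr19:37317632-37317659, plus strand): TTTGGCGCagcgggtagacgttccagcg
ZNF577 (GRCh38.p14 chr19:51888089-51888136, minus strand): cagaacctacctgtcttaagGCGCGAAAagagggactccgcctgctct
ZNF615 (GRCh38.p14 chr19:52008303-52008350, minus strand): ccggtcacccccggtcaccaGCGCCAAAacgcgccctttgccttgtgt

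In ZNF90, ZNF486, ZNF723 and ZNF730 the motif ends 2 to 8 bases before the start, whereas in the other 5 genes shown it ends 98 to 243 bases before it. Over the motif and the 20 bases before it, ZNF723 and ZNF730 share 27 of 28 bases, and ZNF90 and ZNF486 share 25 of 28. The sources used here do not say how reads matching several such copies were handled.

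In 5 of the 6 clusters the density differed from the rest of chromosome 19 by no more than counting error, and in cluster 2 it was lower. The clusters together held 19.4 peaks per Mb (exact 95% Poisson interval 17.1 to 22.0), against 27.8 per Mb (26.3 to 29.4) in the rest, a ratio of 0.70 (exact 95% interval 0.61 to 0.80). The length of the rest includes most of a peak-free stretch of 3.52 Mb over the centromere. How much of that is assembled sequence, where a peak could be called, was not worked out. Any unassembled part in the rest makes its density too low and the ratios too high. Leaving peak-free stretches longer than 1 Mb out of both lengths gave a ratio of 0.74 (0.64 to 0.85). This also removed a stretch of 1.22 Mb inside cluster 2. Without cluster 2 the density was 27.4 per Mb and the ratio 0.99 (0.85 to 1.14). Intervals cover counting error only, since neighbouring peaks are not independent, and with 1 library no p-value is given. Read depth is unknown, because the list holds no read counts.

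Density was 28.0 peaks per Mb in cluster 1 (28 peaks in 1 Mb), 24.1 in cluster 3 (41 peaks in 1.7 Mb), 24.3 in cluster 4 (17 peaks in 0.7 Mb), 26.5 in cluster 5 (45 peaks in 1.7 Mb) and 30.7 in cluster 6 (83 peaks in 2.7 Mb). The interval of each of these ratios to the rest included 1, from 0.87 (0.62 to 1.18) in cluster 3 to 1.11 (0.87 to 1.38) in cluster 6. Intervals of this width do not show equal densities. The rest itself varied widely, since its 42 bins of 1 Mb that touch no cluster held between 0 and 73 peaks, with a median of 25 and quartiles of 20.3 and 33.8. All 5 densities lay inside that range, as the plot of density by cluster shows. Together the clusters were denser than the other autosomes, with 2.00 times (1.75 to 2.27) their 9.73 peaks per Mb. Cluster 2 by itself, at 6.46 per Mb (4.39 to 9.17), lay below that value. The rest of chromosome 19, at 27.8 per Mb, lay farther above it than the clusters did.

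**Figure D1:**
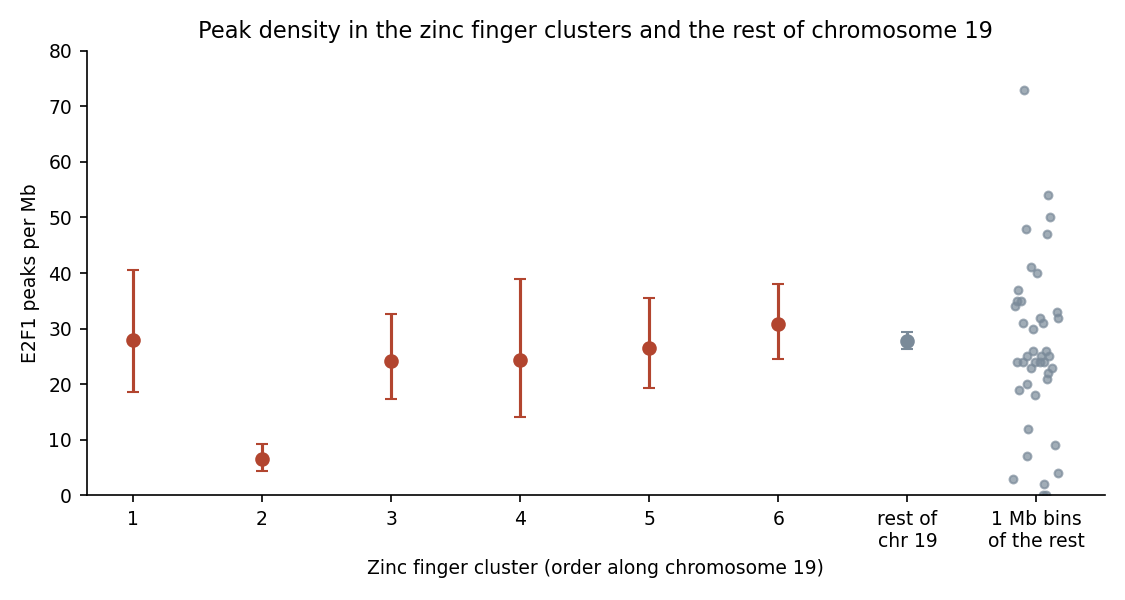
Peaks per Mb in each zinc finger cluster (red) and in the rest of chromosome 19 (grey) with exact 95% Poisson intervals, and, at the right, each of 42 bins of 1 Mb outside the clusters as a point. Cluster 2, at 6.46 peaks per Mb, lies below the other 5 clusters, which run from 24.1 to 30.7.

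Cluster 2, the longest, was sparse. It makes up 38.1% of the length of the clusters and held 31 peaks, or 12.7% of the members. Its density of 6.46 per Mb (4.39 to 9.17) was 0.23 times that of the rest (0.16 to 0.33) and 0.24 times that of the other 5 clusters (0.16 to 0.34). Of the 42 bins of the rest, 5 held no more than this. Of these, 2 held no peak and lie inside the longest peak-free stretch of the chromosome, chr19:24216695-27731877, which spans the centromere. The peaks of cluster 2 were denser at the end away from the centromere, by a cut that was not planned and follows the counts. Its first 0.5 Mb held 10 peaks and the next 4.3 Mb held 21 (4.88 per Mb).

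Long peak-free stretches filled cluster 2. Of its 48 windows of 100 kb, 29 held no peak (60.4%), against 7 of the 78 windows of the other 5 clusters (8.97%) and 117 of 462 windows of the rest (25.3%). Leaving out windows inside a peak-free stretch longer than 1 Mb, 16 of 35 windows of cluster 2 were empty (45.7%), against 85 of 430 in the rest (19.8%), and the other 5 clusters had no such stretch. The longest stretch, chr19:22035032-23257858, was 1.22 Mb long, and the next, chr19:20163262-20747993, was 585 kb. The last 0.283 Mb of the cluster belonged to the longest peak-free stretch of the chromosome, chr19:24216695-27731877 (3.52 Mb), which continues outside the interval. The median score of the peaks called in cluster 2 was 48.2 (27.5 to 69.8), against 44.4 in the other 5 clusters and 36.2 in the rest. Scores above 100 were held by 9.68% of them, against 20.1% and 15.6% in the same order. Scores below 10 were held by 5 of them (16.1%, 5.45 to 33.7%), against 9.81% and 14.2%. Both intervals took in the shares compared, so no difference is drawn from them. The score is the authors' value for each peak, higher for a stronger peak, on a scale that the sources used here do not give.

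**Figure D2:**
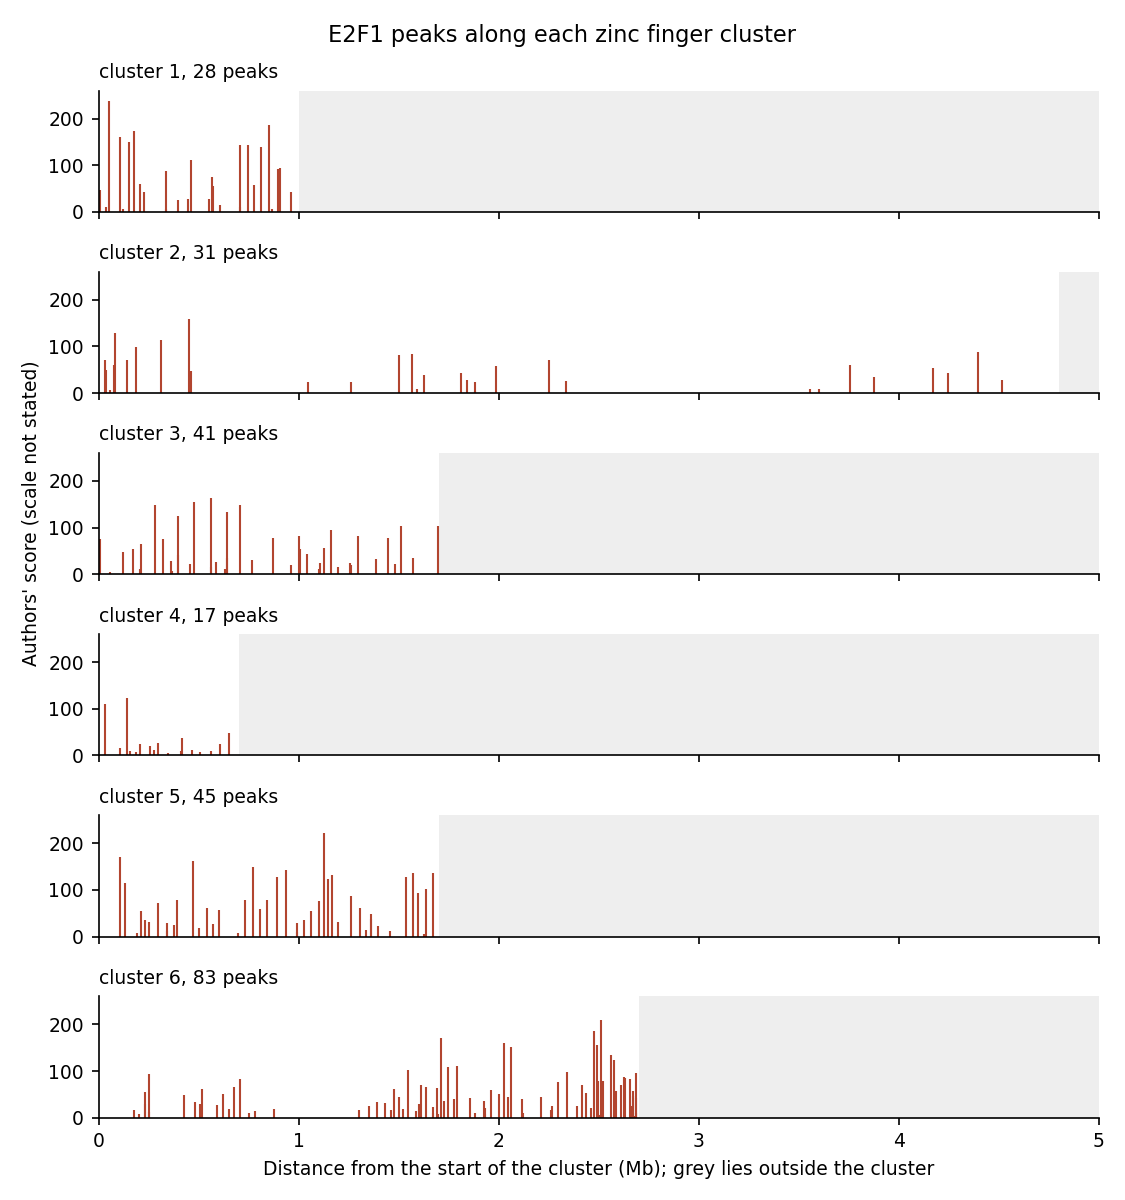
Each line is a peak, placed by its distance from the start of its cluster (Mb) and drawn to the height of the authors' score, with 1 panel per cluster from cluster 1 (top) to cluster 6 (bottom). Cluster 2 shows wide empty stretches, cluster 4 mostly low scores, and cluster 6 a gap of 426 kb and a crowd of peaks at its far end.

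Peaks in the clusters stood farther apart than elsewhere on the chromosome, also in clusters of similar density, and in 4 of the 6 clusters they were more evenly placed. The median distance between a peak and its nearest neighbour, edge to edge, was 19.7 kb in the clusters (19724 bp, quartiles 6335 and 33283 bp), against 7290 bp in the rest (quartiles 1291 and 18564 bp). The exact intervals of these medians, 16495 to 24248 bp and 6594 to 8260 bp, did not overlap. Peaks that are each other's nearest neighbour both enter the same distance, so intervals of median distances are too narrow. The median was 41482 bp in the sparse cluster 2 and 18463 bp in the other 5 clusters (15401 to 21011). By cluster the median distance was 15401 bp in cluster 1, 23958 bp in cluster 3, 21869 bp in cluster 4, 27119 bp in cluster 5 and 11828 bp in cluster 6. Each of these was above the 7290 bp of the rest, and in cluster 3 the interval of the median, 4327 to 35940 bp, took in that value. The interval of cluster 6, 8066 to 16998 bp, overlapped that of the rest. For these 5 clusters together the difference also held against parts of the rest of similar density. In the 24 bins of 1 Mb outside the clusters that held 20 to 35 peaks (27.04 per Mb), the median distance was 8715 bp (7221 to 9524). The intervals of cluster 3 and cluster 6 overlapped this one.

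The share of peaks with a near neighbour was lower in the clusters as a whole, though not in each. Both peaks of a close pair enter the count (18 pairs in the clusters), so the intervals of these shares are too narrow. In the clusters 36 of 245 peaks (14.7%, exact 95% interval 10.5 to 19.8%) had another peak within 1 kb, against 288 of 1286 (22.4%, 20.1 to 24.8%) in the rest and 17.3% over the whole list, which lies inside the interval of the clusters. In cluster 3 the share was 10 of 41 (24.4%), above that of the rest. Without cluster 2 it was 15.9% (11.3 to 21.5%) and without cluster 4 15.8% (11.3 to 21.2%), and both intervals overlapped that of the rest. The difference grew with the distance. Within 5 kb the shares were 22.9% in the clusters and 41.1% in the rest, and within 10 kb they were 31.4% and 58.9% in the same order. The spacing curves part between 1 and 10 kb.

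**Figure D3:**
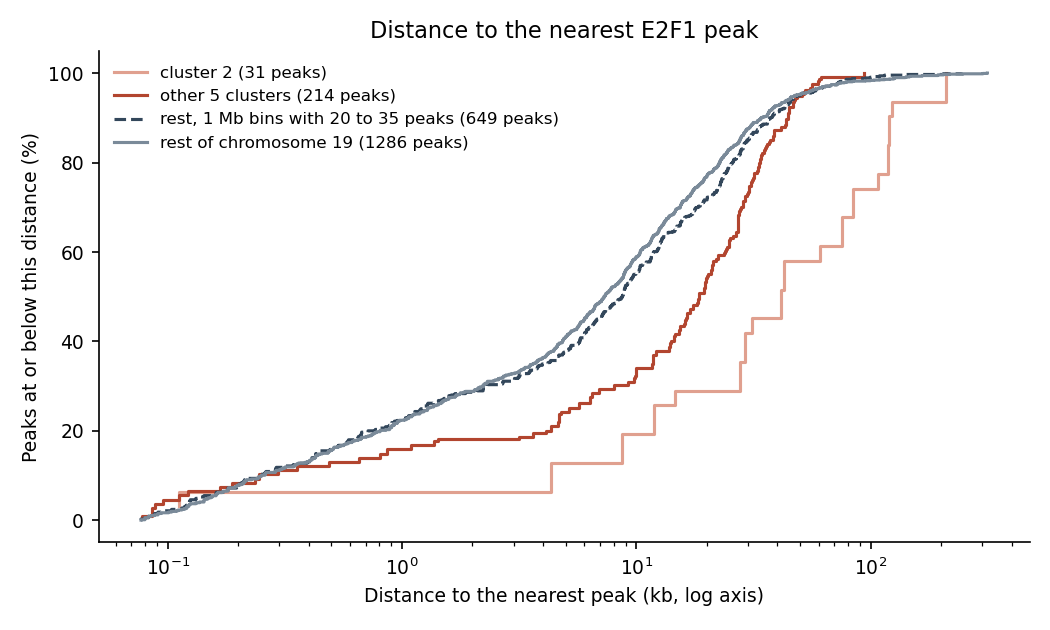
Share of peaks (%) whose nearest other peak lies within a given distance (kb, log axis), for cluster 2, the other 5 clusters, bins of the rest with 20 to 35 peaks per Mb, and the whole rest of chromosome 19. Median distances were 41.5, 18.5, 8.72 and 7.29 kb in this order.

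The close peaks of the clusters formed 18 pairs and no longer runs, whereas the rest held 12 runs of at least 3 peaks with gaps of at most 1 kb, with 36 peaks in all (2.80% of its peaks). A count of 0 runs allows up to 3, or 1.22 per 100 peaks, against 0.933 per 100 peaks in the rest, so fewer runs in the clusters were not detectable at this number of peaks. The pairs were spread over cluster 1 (2 pairs), cluster 2 (1), cluster 3 (5), cluster 5 (3) and cluster 6 (7), and cluster 4 had none among its 17 peaks, where the 3 pairs that a count of 0 allows would take 35.3% of the peaks. The ratio of the higher to the lower score of a pair had a median of 2.96 in the clusters and 3.09 in the rest. By construction it cannot be below 1, and it was not compared with peaks that are not paired. The median score was 56.5 for the stronger member and 11.7 for the weaker one in the clusters, and 50.8 and 14.7 in the 126 pairs of the rest. In cluster 3, the pair at chr19:37262435-37264120 scored 163 and 15.3. Cluster 1 had a pair at chr19:12404694-12406009 that scored 143 and 10.3. These are among the most unequal pairs, and other pairs were closer, such as 57.3 and 46.5 at chr19:59069831-59071197 in cluster 6. Without summits or signal, whether a pair is 2 sites or 1 enriched stretch cannot be told apart.

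Evenness was measured as the variance over the mean of the number of peaks per 100 kb window, which is 1 for counts scattered independently at 1 rate and lower for even spacing. It was 0.38 in cluster 1, 0.62 in cluster 3, 0.67 in cluster 4 and 0.75 in cluster 5. Among the 24 bins of the rest with 20 to 35 peaks the median ratio was 1.85, with a range of 0.76 to 3.70, so each of these 4 clusters lay below all 24 bins, cluster 5 by a small margin (0.753 against 0.759 in the lowest bin). These 4 clusters hold 7 to 17 windows each and a bin holds 10, so every such ratio rests on few windows. Windows in these clusters were rarely empty. Every window of clusters 1, 3 and 4 held at least 1 peak and none held more than 5, and in cluster 5, 16 of 17 windows were filled. With windows of 50 and 200 kb clusters 1, 4 and 5 again had lower ratios than all 24 bins, but not cluster 3, whose ratio of 0.99 at 50 kb was above 3 of the 24 bins and whose ratio of 0.86 at 200 kb was above 1 of them. Clusters 2 and 6, at 1.81 and 2.45, lay within the range of the bins.

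**Figure D4:**
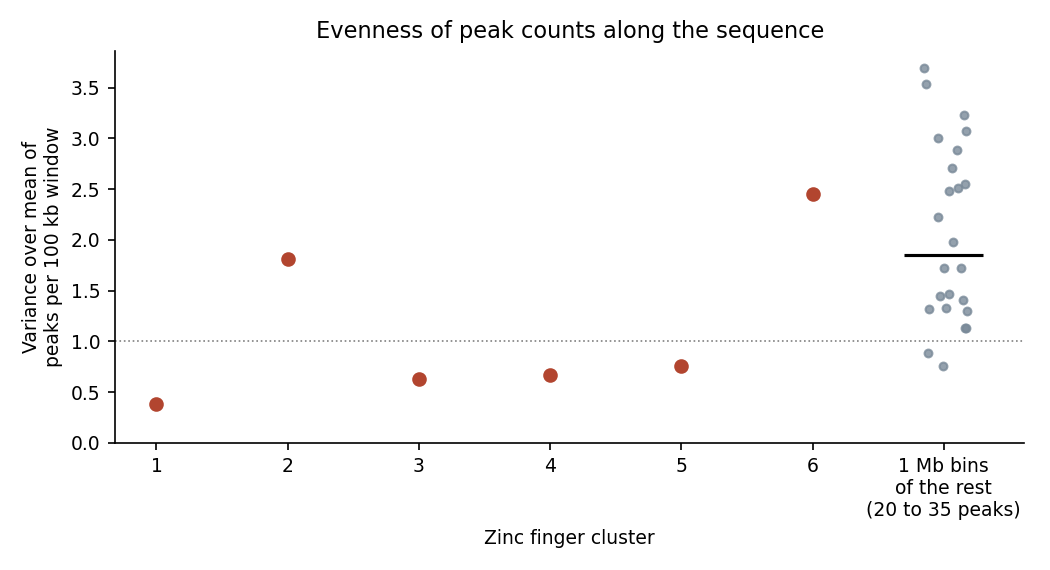
Variance over mean of the number of peaks per 100 kb window in each cluster (red) and in 24 bins of 1 Mb of the rest that held 20 to 35 peaks (grey, bar at the median of 1.85), with the dotted line at 1. Clusters 1, 3, 4 and 5 lie below every bin of the rest.

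Cluster 5 was the most regular by the quartiles of its stretches. Its 44 stretches between neighbouring peaks had a median of 32.0 kb with quartiles of 23.9 and 43.1 kb, and 32 of them (72.7%) were between 10 and 50 kb long. In the 5 clusters other than cluster 2, 127 of 209 stretches were of that length (60.8%, exact 95% interval 53.8 to 67.4%), against 589 of 1280 in the rest (46.0%, 43.3 to 48.8%) and 298 of 625 in its bins with 20 to 35 peaks (47.7%, 43.7 to 51.7%). Cluster 3 was below both, with 17 of 40 (42.5%), while the counts were 17 of 27 in cluster 1, 12 of 16 in cluster 4 and 49 of 82 in cluster 6. The upper quartile of the stretches was 2.95 times the lower one in these clusters and 6.64 times in the rest. The longest stretches of clusters 1, 3, 4 and 5 were 109, 126, 74.4 and 94.6 kb, at chr19:11925335-12034595, chr19:38270759-38397184, chr19:44331530-44405926 and chr19:52901298-52995900.

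Cluster 6, which reaches the end of the long arm, was denser near that end, by a cut at 300 kb that was not planned. Its last windows of 100 kb held 7, 6 and 12 peaks, and the cut follows these counts. A stretch of 426 kb without a peak, chr19:57276837-57702652, was its longest. Its last 300 kb, next to the telomere, held 25 of its 83 peaks, or 83.3 per Mb, with a median score of 69.5. The part before it held 58 peaks at 24.2 per Mb, with a median score of 35.03. The last 100 kb alone held 12 peaks, 6 of them with a neighbour within 1 kb. Before the last 300 kb, 6 of the 24 windows of 100 kb were empty and the variance over mean was 1.47.

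The median score was higher in the clusters than in the rest, with overlapping intervals. The median was 44.7 (exact interval of the median 35.5 to 55.1, quartiles 21.2 and 82.3), against 36.2 in the rest (33.7 to 39.1, quartiles 15.5 and 73.5). Both exceeded the median of 22.7 on the other autosomes. The top 10% of the list by score took 41 of the 245 peaks (16.7%, exact 95% interval 12.3 to 22.0%), against 169 of 1286 in the rest (13.1%, 11.3 to 15.1%) and 10.0% of all peaks by construction. Scores above 100 were held by 46 members (18.8%, 14.1 to 24.2%), against 200 peaks of the rest (15.6%, 13.6 to 17.7%) and 12.0% of the list. Peaks scoring below 10 made up 10.6% of the members (7.05 to 15.2%), against 14.2% of the rest (12.4 to 16.3%), and these intervals also overlapped.

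Clusters differed among themselves in score. Clusters 5 and 1 had the highest medians, 59.9 (34.8 to 79.4) and 59.2 (28.1 to 111), and cluster 4 the lowest, 16.4 (8.70 to 27.2). Medians of 48.2, 42.8 and 42.6 in clusters 2, 6 and 3 lay between, and their intervals overlapped with those of clusters 1 and 5. In cluster 1, 9 of 28 peaks were in the top 10% of the list (32.1%, 15.9 to 52.4%), as were 12 of 45 in cluster 5 (26.7%, 14.6 to 41.9%). The counts in the other clusters were 3 of 31 in cluster 2, 6 of 41 in cluster 3, 2 of 17 in cluster 4 and 9 of 83 in cluster 6.

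**Figure D5:**
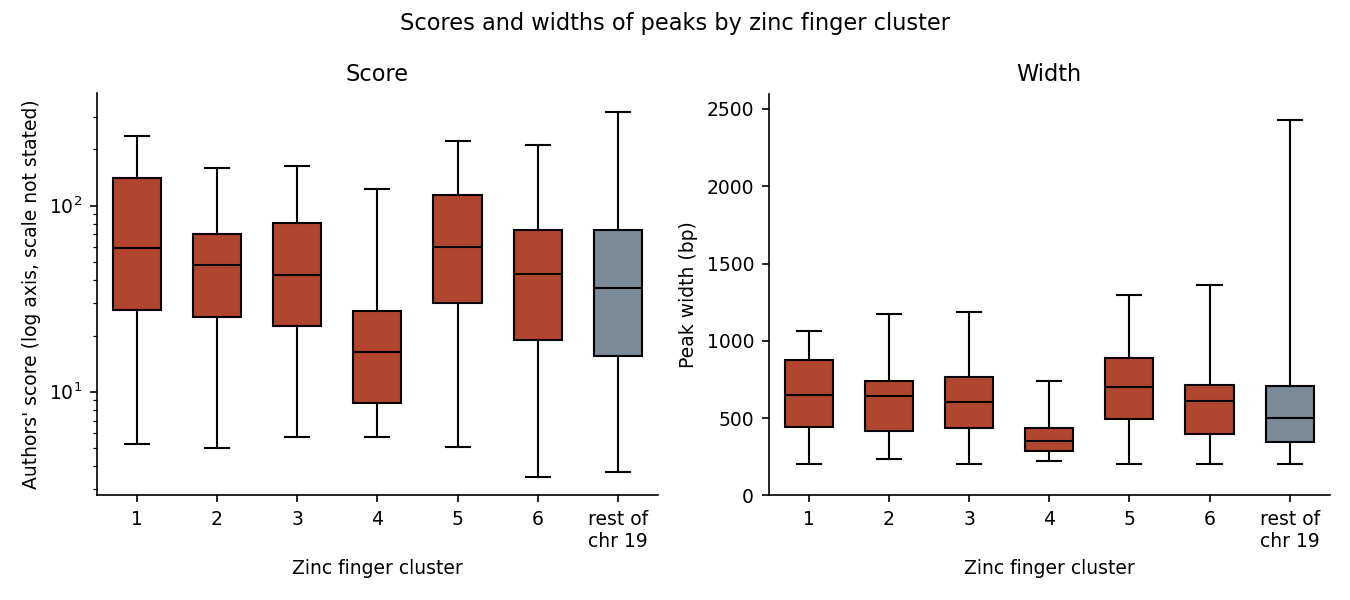
Authors' scores (left, log axis) and widths in bp (right) of the peaks of each cluster (red) and of the rest of chromosome 19 (grey); boxes span the quartiles with a line at the median, and whiskers reach the lowest and highest peak. Cluster 4 has the lowest medians, a score of 16.4 and a width of 352 bp.

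The strongest member, with a score of 237 (rank 236 of 28734), was the 721 bp peak at chr19:11750296-11751016 in cluster 1. Next came a 908 bp peak of cluster 5 at chr19:53426014-53426921 (score 223, rank 321) and a 738 bp peak of cluster 6 at chr19:58912352-58913089 (score 210, rank 447). Of the remaining 7 of the 10 highest, cluster 1 held chr19:12551387-12552269 (score 187) and chr19:11877570-11878273 (score 174). Cluster 6 held chr19:58873457-58874531 (score 185) and chr19:58110987-58111644 (score 171), cluster 5 held chr19:52408027-52408568 (score 170) and chr19:52772509-52773275 (score 161), and cluster 3 held chr19:37263503-37264120 (score 163). None of the 10 highest lay in cluster 2 or cluster 4. The strongest peaks of these were chr19:20149987-20150684 with a score of 160 and chr19:44439301-44439987 with a score of 123. The strongest peak of the rest of the chromosome scored 319.

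Of the 10 highest members, 9 stood more than 5 kb from any other peak, as did 189 of all 245 members (77.1%), so this count is near that of the members at large. The exception was the strongest peak of cluster 3, with a weak neighbour 806 bp away. Distances for the other 9 ran from 5185 to 27398 bp.

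Peaks in the clusters were also wider, with a median of 610 bp (exact interval 557 to 648, quartiles 403 and 763), against 500 bp in the rest (482 to 522, quartiles 344 and 707). Wider peaks tend to be stronger ones in this list (Spearman's rho across peaks 0.65 over the 245 members and 0.75 over the 1286 peaks of the rest, as a description of the same peak calls). Widths were therefore also set side by side within 5 bins of equal size of the chromosome's peaks by score. In bin 1, the lowest, the medians were 290 bp in the clusters and 265 bp in the rest. They were 477 and 371 bp in bin 2, 611.5 and 547.5 bp in bin 3, 685 and 621 bp in bin 4, and 729.5 and 737 bp in bin 5, in the same order. Members were thus wider by 25 to 106 bp in 4 bins and narrower by 7.5 bp in the highest. The widest members were below the extreme of the rest (2426 bp). They were 1364 bp at chr19:59055086-59056449 and 1250 bp at chr19:59030367-59031616 in cluster 6, 1293 bp at chr19:53193108-53194400 and 1266 bp at chr19:52692499-52693764 in cluster 5, and 1183 bp at chr19:38397185-38398367 in cluster 3.

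Cluster 4 differed from the others in its scores as well as its widths. Its median width was 352 bp, with an exact interval from 288 to 435 bp that lay below the interval of the rest. Of its 17 peaks 13 had scores from 5.73 to 27.2, and the other 4 scored 37.2, 48.6, 110 and 123. All 13 low scores were values that recur in the list. A score was counted as recurring when at least 25 peaks of the whole list held exactly that value, which is true of 27 values from 4.37 to 27.2. Among peaks in that range, 13 of 13 in cluster 4 held such a value (100%, exact 95% interval 75.3 to 100%), against 11 of 68 in the other 5 clusters (16.2%, 8.36 to 27.1%), 124 of 514 in the rest (24.1%, 20.5 to 28.1%) and 15.4% of the whole list. In cluster 1 it was 0 of 7 peaks (exact 95% interval up to 41.0%), where the 3 counts that a count of 0 allows would be 42.9%. The share was also high just beyond cluster 4, at 14 of 20 peaks in the next 1 Mb (70.0%) and 2 of 4 in the 1 Mb before it. It was not limited to this area. Bins of 1 Mb of the rest varied, with 7 of 12 (58.3%) in chr19:47000001-48000000, 7 of 15 (46.7%) in chr19:17000001-18000000 and 0 of 15 in chr19:10000001-11000000. The same 13 peaks give this share and the low scores of cluster 4, so these are not separate observations. In every set the share was taken only among peaks in the score range of the recurring values. Without cluster 4, the members' median score was 48.1 (41.1 to 57.3), an interval above that of the rest. Cluster 4 was left out for its low scores, so the median had to rise. No difference in score between clusters and rest is drawn from this.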

How the data were processed

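One peak list, of the E2F1 library, was analysed, and no file of the input was used here. The submitters' processing notes list the tools Bowtie, MACS2 (2.0.9) and CASAVA (1.6.0), and hg19 as the build. Settings, the peak threshold, how duplicate and multiply mapped reads were treated and whether the input served as control were not given in the sources used here. Each peak's score, deposited by the authors in a column without a header, has no stated scale, so it was used within this list alone. Starts were read as 0-based and are printed 1-based.

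Densities, widths, scores and distances between peak edges were computed with scipy 1.17.1, numpy 2.4.6 and pandas 2.3.3 under Python 3.11.15, and drawn with matplotlib 3.10.9. The rest is as long as the span between the outermost peaks of chromosome 19, less the clusters. Intervals are 95%: exact Poisson for densities, exact binomial conditional on the total for ratios, Clopper-Pearson for shares and order statistics for medians, each tested on simulated data with known rates, shares or medians. A count of 0 is given the limit of 3 counts. With 1 library and no replicate, no test was run across peaks. Members, intervals and measures were chosen with earlier results of these data known. Evenness, runs of genes, the motif search and bins of similar density were added after seeing the data. Named sites are the strongest peak and longest peak-free stretch of each cluster, the 10 highest-scoring and 5 widest members, and runs of close peaks. Pairs were named after their values were seen. The planned share of zinc finger gene starts with a peak needs an hg19 annotation and was not run. RefSeq sequences are of GRCh38.p14, and all 2696 overlapping pairs of promoters on opposite strands that were compared held the same bases.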

Additional observations from a re-analysis of the deposited data

How the results depend on the processing

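Of 59 alternatives for density, score, width, distance and close neighbours, 48 kept the direction and either the side of 1 (density) or a value inside the counting interval (the others), 7 moved, 2 grew weaker and 2 reversed. All 12 alternatives for evenness, which has no interval, kept the sign of the difference from the median bin, but cluster 3 no longer lay below all bins. The density ratio of clusters over rest, 0.70, was 0.99 without cluster 2 and 0.89 (0.62 to 1.26) among the top 10% of peaks by score, and in both cases its interval included 1. It was 2.00 with the other autosomes as reference, which reverses its direction. The other alternatives of the ratio ran from 0.59 to 0.81. For measures other than density, the counting interval is that of the clusters, with the value of the rest held fixed. The difference in median score, 8.46, was 22.0 against the other autosomes. Its own interval, -0.73 to 18.8, took in no difference, so alternatives that kept its direction do not settle it. The difference in median width, 110 bp, was 199 bp against the other autosomes, 42 bp in the top 50% by score, 25 bp in the lowest of 5 score bins and -7.5 bp in the highest. The difference in median distance, 12434 bp, was 18596 bp without cluster 6, and the range over its other alternatives was 9456.5 to 15314 bp. The difference in the share of peaks with a close neighbour, -7.70 percentage points within 1 kb, was -18.2 within 5 kb and -27.4 within 10 kb. Alternatives using bins of the rest with 20 to 35 peaks, other window sizes for evenness, and the share of close neighbours without each cluster (-9.65 to -6.51 percentage points), were chosen after seeing the data. Peaks at gene starts were not run. No paired analysis was possible because a single library was at hand, and for the same reason no replicate could be left out. What depth limits is unknown, since the list gives no read counts.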
